A study of Arabidopsis thaliana with 12 samples.

Results

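The microRNAs (miRNAs) miR159 and miR319 were followed in Arabidopsis thaliana shoots of the Col-0 ecotype. Wild-type (WT) plants and a hasty knockout were each grown under control and low-nitrogen (low N) conditions. The members were chosen by name, as every row that starts with ath-miR159 or ath-miR319, which gave 7 of the 390 names in the table: ath-miR159a, ath-miR159b-3p, ath-miR159b-5p, ath-miR159c, ath-miR319a, ath-miR319b and ath-miR319c, written below without their prefix. These 7 names stand for 6 mature sequences, since miR319a and miR319b are identical. HASTY is the plant relative of the animal nuclear export receptor exportin-5, and the labels call the mutant a knockout without naming its allele. All plants were 10 days old, with 5 days on standard nutrients followed by 5 days of treatment, and the labels describe the low N treatment but not the control medium. Each of the 4 groups (WT control, hasty control, WT low N and hasty low N) had 3 libraries, which the labels call biological replicates. The table lists miRNAs alone, so neither the HASTY transcript nor shoot marker genes could be checked.

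Plant miRNAs guide ARGONAUTE proteins to nearly complementary sites in messenger RNAs, which are then cleaved or translated less. In leaves, miR159 silences the GAMYB-like factors MYB33 and MYB65, which otherwise stunt and curl the rosette, while miR319 restrains a set of TCP factors that end cell proliferation in the leaf blade. The families are related in sequence and have long precursors that are cut from the loop side, but their main targets differ.

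The mature sequences are printed because the comparisons below turn on single bases at their ends. They are RefSeq sequences of assembly TAIR10.1, written 5′ to 3′, with the seed (bases 2 to 8) in capitals.
miR159a: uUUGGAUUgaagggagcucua
miR159b-3p: uUUGGAUUgaagggagcucuu
miR159c: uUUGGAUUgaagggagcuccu
miR319a and miR319b: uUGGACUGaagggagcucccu
miR319c: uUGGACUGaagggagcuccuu
miR159b-5p: gAGCUCCUugaaguucaaugg
All are 21 nt long. The seed UUGGAUU is shared by the 3 main miR159 names and the seed UGGACUG by the 3 miR319 names, while miR159b-5p, the opposite arm of the miR159b hairpin, has a seed of its own. Counted from the 5′ end of miR159a, miR159b-3p differs by the substitution A21U alone, and miR159c by U20C and A21U. With the first base of miR319a set under the second base of miR159a, 3 of 20 aligned bases differed (U7C, U20C and A21C). In the same alignment miR319c and miR159c differed by a single substitution, U7C counted along miR159c.

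The 6 precursors lie apart in the genome (TAIR10.1). MIR159a (AT1G73687) is on chromosome 1, minus strand, with its mature miRNA at chr1:27713234-27713254, and MIR159b (AT1G18075) is on the plus strand of the same chromosome, with the 3p arm at chr1:6220813-6220833. MIR159c (AT2G46255, chr2:18994826-18994846) and MIR319c (AT2G40805, chr2:17029870-17029890) are on chromosome 2, plus strand. MIR319a (AT4G23713) has its mature miRNA at chr4:12353109-12353129, plus strand, and MIR319b (AT5G41663) at chr5:16660469-16660489, minus strand. None of the 6 annotated precursors overlapped a protein-coding gene. Their lengths were 172 to 225 nt, against a median of 145 nt over 325 annotated miRNA precursors. The sequence shared by miR319a and miR319b had 2 exact matches in the genome and each other member had 1.

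The match to the targets is shown for 8 known target genes, since the base that separates miR159a from miR159b-3p falls inside it. Each site below is the best ungapped pairing of the transcript with miR159a (MYB genes) or miR319a (TCP genes), scored with 1 for a mismatch and 0.5 for a G:U pair. It is written 5′ to 3′ as DNA, with the bases that face the seed in capitals.
MYB33 and MYB65: tggagctcccttcATTCCAAt
MYB101: tagagcttccttcAAACCAAa
TCP4: gaggggtccccttCAGTCCAg
TCP10: aaggggtacccttCAGTCCAg
TCP24: tagggggacccttCAGTCCAa
All 8 sites, including those of TCP2 and TCP3, lay in coding sequence. The MYB33 site (chr5:1839579-1839599, plus strand) and the MYB65 site (chr3:3604151-3604171, plus strand) had the same letters. They mismatched miR159a at bases 1 and 7, with a G:U pair at base 20, a score of 2.5 that 9 of 31460 loci with a messenger RNA reached (0.0286%). Base 21 of miR159b-3p added a further mismatch there. In TCP4 (chr3:5063300-5063320, plus strand) the site mismatched miR319a at bases 14 and 20, and its score of 4.0 was reached by 30 loci (0.0954%). The best pairing of TCP4 with miR159a scored 5.5, a score that 1983 loci reached (6.30%), and with miR159b-3p it scored 4.5, which 334 loci reached (1.06%). In the other direction, miR319a paired with the same stretch of MYB33 and MYB65, shifted by 1 base, with mismatches at bases 6, 20 and 21. That score of 3.0 was reached by 3 loci (0.00954%) and was lower than the score of miR319a on TCP4. The TCP10 site is at chr2:13221210-13221230 and the TCP24 site at chr1:10628989-10629009, both on the minus strand, and the MYB101 site is at chr2:13783168-13783188, minus strand. These are matches of letters, and target transcripts are not in the table.

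The values are whole numbers per name that the deposit calls TPM. They were read as counts, because their totals differ between libraries, where TPM would add up to one fixed sum. The counts listed per library ranged from 1292752 to 3226269 and fell to 508050 to 1495659 when each mature sequence was counted once. Levels are given as counts per 1000000 (CPM) after TMM scaling, a factor per library that assumes most names do not change. Changes were tested in edgeR's quasi-likelihood fit over all 12 libraries, with Benjamini-Hochberg adjusted p-values over the 273 names that passed a filter on low counts and a threshold of 0.05. Of the 7 members 6 passed the filter. In whole shoots, fewer cells that make a miRNA and less miRNA per cell cannot be told apart.

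The first question was how the families differ between genotypes. In hasty shoots miR159b-3p and miR159c were lower by about 2-fold in both conditions, and miR159a was lower in low N but did not pass the threshold in control. No miR319 name was called lower. The order of abundance was the same in all 4 groups, with miR159a above miR159b-3p and both far above miR319a and miR159c, all of the same length. In WT control the 3 libraries held miR159b-3p, made from MIR159b, at 42308, 32676 and 48557 CPM, while hasty control libraries held 19312, 20207 and 19545 CPM. Under low N the levels were 56084, 58760 and 76727 CPM in WT and 28687, 30969 and 24554 CPM in hasty. Every hasty library lay below every WT library, and the 3 hasty control libraries were the closest to each other. The means were 41180 ± 8000 CPM (SD, n = 3) and 19688 ± 465 CPM in control, and the log2 change was -1.06 with an SE of 0.16 and an edgeR adjusted p of 0.00072. Under low N they were 63857 ± 11226 and 28070 ± 3252 CPM, where the log2 change was -1.19 ± 0.16 (2.27-fold lower, edgeR adjusted p = 0.00038).

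The less abundant miR159c followed miR159b-3p. Its level was 306, 277 and 368 CPM in the WT control libraries while the hasty control libraries had 159.0, 189 and 146 CPM. Under low N it was 394, 424 and 478 CPM in WT and 182, 251 and 199.7 CPM in hasty. The genotypes did not overlap in either condition. The log2 change was -0.95 ± 0.16 (SE) in control and -1.04 ± 0.16 in low N, with edgeR adjusted p of 0.0012 and 0.00062. In counts, miR159c stood at 0.623% to 0.847% of miR159b-3p in the 6 WT libraries and at 0.635% to 0.934% in the 6 hasty libraries, ranges that overlap. Against miR159a it stood at 0.459% to 0.577% in WT and at 0.285% to 0.382% in hasty, ranges that do not. Since miR159c is 1 base from miR159b-3p and the counting rule is not stated, reads of one that were listed under the other cannot be told apart from its own.

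For miR159a, the most abundant member, the genotypes lay closer together. The WT control libraries held 59889, 47945 and 71314 CPM and the hasty control libraries 43508, 49468 and 48365 CPM, so that the lowest WT library fell among the hasty ones. The log2 difference was -0.34 ± 0.16 (SE, edgeR adjusted p = 0.12) and missed the threshold. Its adjusted p was 0.036 without WT control replicate 1, 0.034 without WT control replicate 2 and 0.011 without hasty low N replicate 3. In low N the 3 WT libraries, at 79706, 81465 and 104220 CPM, all lay above the hasty libraries at 63988, 69539 and 53643 CPM. There miR159a was 1.42-fold lower in hasty (log2 change -0.50 ± 0.16, edgeR adjusted p = 0.038). This call was lost when any of 4 libraries was left out: replicate 2 of hasty control (log2 -0.30, adjusted p = 0.097), replicate 3 of that group (adjusted p = 0.052), replicate 3 of WT low N (-0.37, 0.12) and replicate 1 of hasty low N (adjusted p = 0.0725). It was also lost with no filter on low counts (-0.28, adjusted p = 0.16).

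**Figure D1:**
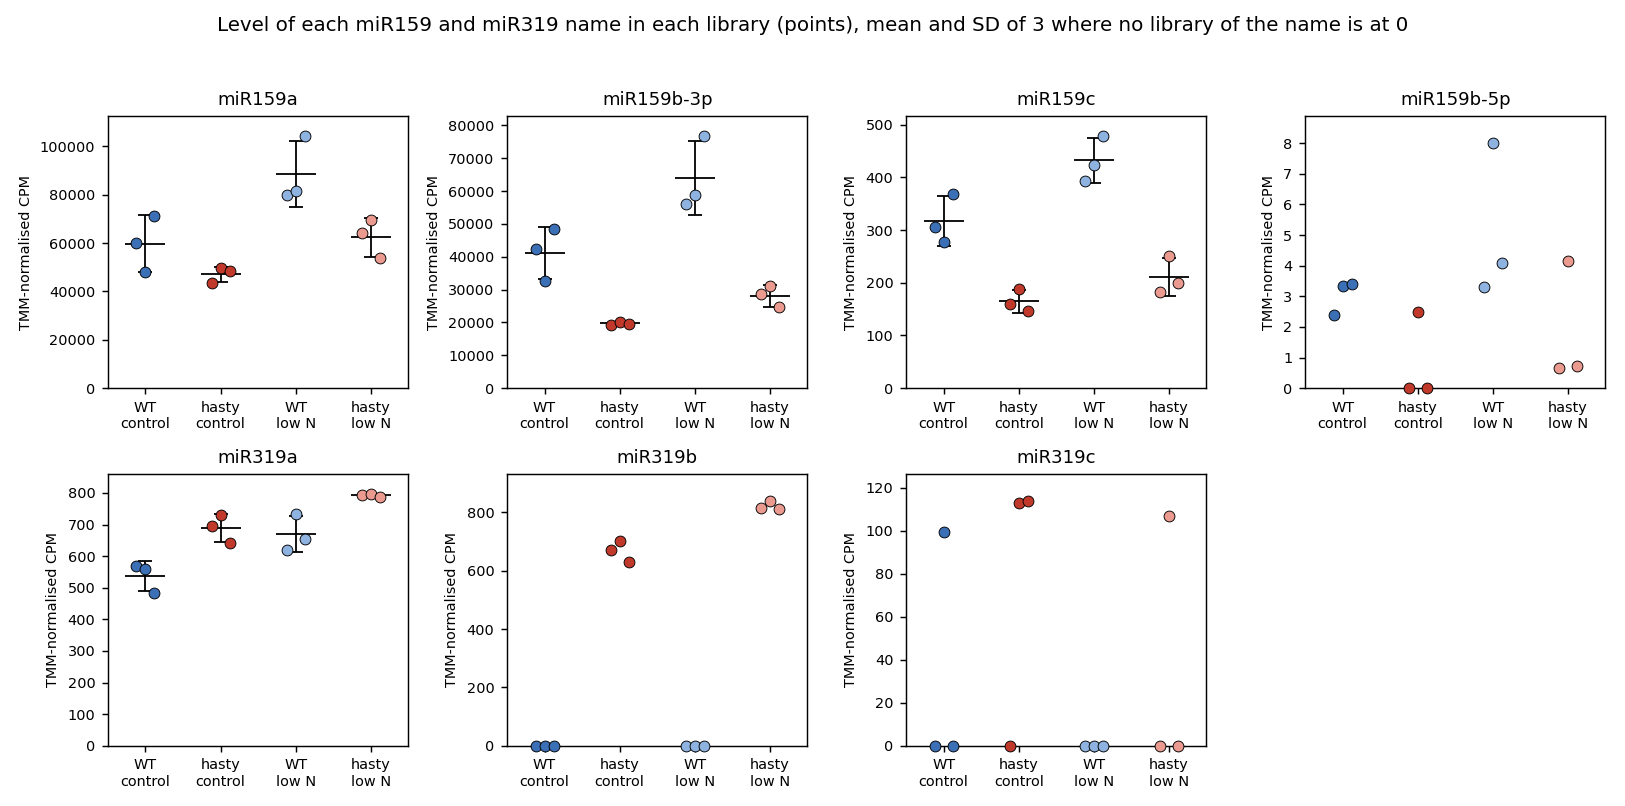
TMM-normalised CPM (y axes, linear) of each of the 7 names in the 3 libraries of each group (points), with the mean and SD (bars) for names with no library at 0. The hasty points of miR159b-3p and miR159c lie below the WT points in both conditions, miR159a overlaps in control, and miR319b is at 0 in all WT libraries.

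The ratio of the 2 abundant miR159 sequences needs no scaling between libraries and separated the genotypes with little spread. In WT control the counts of miR159a were 1.42, 1.47 and 1.47 times those of miR159b-3p, and in WT low N 1.42, 1.39 and 1.36 times. In hasty control they were 2.25, 2.45 and 2.47 times, and in hasty low N 2.23, 2.25 and 2.18 times. The 6 WT libraries thus lay between 1.36 and 1.47 and the 6 hasty libraries between 2.18 and 2.47. The log2 ratio was larger in hasty by 0.70 (exact two-sided permutation of genotype within each condition, p = 0.005, the smallest that 400 assignments can give, and 0.008 adjusted over 8 tests of ratios and shares). It was 0.08 lower in low N (exact permutation within genotypes, p = 0.015, adjusted p = 0.020). The low N difference is small beside that between genotypes. In WT the lowest control library, at 1.416, lay under the highest low N library, at 1.421, while in hasty the nitrogen groups were apart. How reads ending before the differing base were assigned is not stated.

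The opposite arm, miR159b-5p, had 8, 13 and 12 counts in WT control and 8, 16 and 9 in WT low N. The hasty libraries had 0, 6 and 0 counts in control and 1, 6 and 1 in low N. The hasty libraries were shallower, and in CPM the genotypes overlapped in both conditions, with 2.50 in a hasty control library against 2.38 in a WT control library and 4.14 against 3.29 in low N. The name did not pass the filter on low counts and was not tested.

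The miR319 names need their shared sequence to be read together. The name miR319b was listed at 0 in all 6 WT libraries. In hasty it was listed at 1441, 1684 and 1174 counts in control and at 1238, 1216 and 1121 in low N. In the same hasty libraries miR319a, of the identical sequence, was listed at 1490, 1755 and 1197 counts in control and at 1208, 1153 and 1086 in low N. The counts of miR319b were 0.960 to 1.05 times those of miR319a over these 6 libraries. In the table, 3 names were at 0 in all WT and above 0 in all hasty libraries, and 5 names the reverse. No fold change is given for miR319b, because the sequence itself was present in WT under the name miR319a.

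As listed, miR319a was at 570, 559 and 484 CPM in WT control and at 695, 732 and 641 CPM in hasty control. It was at 620, 733 and 655 CPM in WT low N and at 794, 796 and 786 CPM in hasty low N. The genotypes did not overlap in either condition, and low N libraries lay above control libraries in hasty and in WT. The log2 change between genotypes was 0.36 ± 0.08 (SE, edgeR adjusted p = 0.0065) in control and 0.24 ± 0.08 (adjusted p = 0.0499) in low N. With the sequence counted once, at the higher of its 2 names, the log2 difference was 0.18 ± 0.11 in control (edgeR adjusted p = 0.25) and 0.30 ± 0.11 in low N (adjusted p = 0.059), so neither call held. For the sequence the call depended on the scaling: with median-of-ratios size factors the difference was 0.42 in both conditions (edgeR adjusted p = 0.018 and 0.020), and with table totals it was 0.38 and 0.55 (0.039 and 0.0085). With the counts of both names added, it was 1.21 in control and 1.25 in low N. Because miR319b was listed in hasty libraries alone, that sum raises hasty only and cannot test the sequence. For the name miR319a, both calls were lost with table totals, where the sequence gained them. The difference was then 0.14 in control (edgeR adjusted p = 0.44), smaller than with TMM factors. In low N it was 0.30 ± 0.12 (SE, edgeR adjusted p = 0.085), larger than with TMM factors but with a larger SE. A filter at a mean of at least 10 CPM lost both calls too (0.24 and 0.23, edgeR adjusted p = 0.11 and 0.13). The call of miR319a in control was also lost without WT control replicate 1, hasty control replicate 2 or hasty low N replicate 3 (adjusted p = 0.073 to 0.16). In low N it was lost without any 1 of 8 libraries, namely WT control replicates 1 and 2, hasty control replicate 1, WT low N replicates 1 and 3 and the 3 hasty low N replicates (adjusted p = 0.059 to 0.21). In the fit with the sequence counted once, the low N difference was called without WT control replicate 3 (adjusted p = 0.016) or WT low N replicate 2 (0.042).

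With each mature sequence counted once, the share of miR159 was lower and that of miR319 higher in hasty. The miR159 names made up 26.8%, 23.3% and 28.4% of the counts in WT control and 17.1%, 18.7% and 17.9% in the hasty control libraries. Under low N the shares were 30.3%, 29.6% and 35.4% in WT and 22.2%, 24.0% and 21.3% in hasty. The log2 difference of the miR159 share between hasty and WT was -0.52 (exact permutation p = 0.005, adjusted p = 0.008), with no overlap between genotypes within either condition. The miR319 sequence held 0.114% to 0.161% of the counts in the 6 WT libraries and 0.169% to 0.221% in the 6 hasty libraries, a log2 difference of 0.47 (exact permutation p = 0.005, adjusted p = 0.008). The size of this difference moved with the counting: as a share of all listed counts it was 0.25 (exact permutation, adjusted p = 0.040), where the control groups overlapped. With the counts of both names added it was 1.45, a sum that raises hasty only, since miR319b was listed in hasty libraries alone. Per 100 miR159 counts there were 0.361 to 0.691 counts of the miR319 sequence in WT and 0.833 to 1.10 in hasty. The log2 ratio of miR319 to miR159 differed by 0.99 in the same direction (p = 0.005 by exact permutation, 0.008 adjusted), and the genotypes did not overlap. This ratio is the quotient of the shares just given, so its test adds no separate evidence. With both names added the ratio differed by 1.97, which the listing of miR319b in hasty alone raises in the same way. The share of miR319 thus differed by this test while the TMM-scaled level missed the threshold, and the measures differ in what they are divided by. The tests differ as well. The permutation took both nitrogen conditions together and was adjusted over the tests of ratios and shares alone. The edgeR fit tested each condition apart and was adjusted over all tested sequences. How much each of these differences contributed was not tested.

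**Figure D2:**
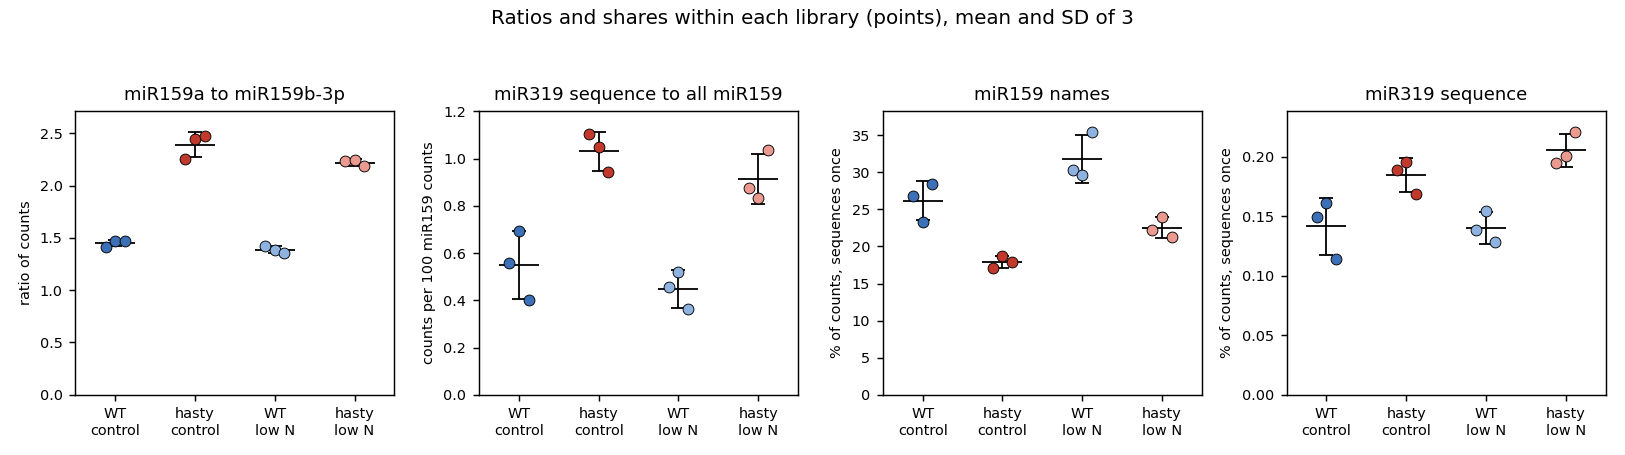
Ratio of miR159a to miR159b-3p, miR319 counts per 100 miR159 counts, and the shares of miR159 and of the miR319 sequence in counts with each mature sequence counted once (y axes, linear from 0), per library (points) with mean and SD of 3 (bars). The ratio of miR159a to miR159b-3p lies between 1.36 and 1.47 in WT and between 2.18 and 2.47 in hasty.

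The name miR319c, 1 base from miR319a and miR319b, was listed at 387 counts in 1 WT control library and at 0 in the other two. It had 0, 271 and 213 counts in hasty control and 0, 155 and 0 in hasty low N, and was at 0 in all 3 WT low N libraries. Replicates of one group thus ranged from 0 to between 99.7 and 114 CPM wherever the name was listed, and miR319c passed the threshold in none of the 4 comparisons of groups (edgeR adjusted p = 0.18 to 0.90).

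The CPM ranges of the genotypes were apart for 4 of 6 tested members in control, as for 59.7% of all tested names, and for 5 of 6 in low N, as for 50.9%. These counts, and the counts of names called below, include miR319b. It was listed in hasty libraries alone and passed the filter through them, so its part in the counts was fixed by the listing. Counted over the names, 4 of 6 tested members passed the threshold between genotypes in control, where 45.8% of all tested names did. Of these, 2 were higher (18.7% of all names) and 2 lower (27.1%). In low N 5 of 6 passed, against 34.8% of all names, with 2 higher (11.4%) and 3 lower (23.4%). The higher names were miR319a and miR319b in both conditions, which are 1 sequence. With each mature sequence counted once, miR159a, miR159b-3p and miR159c were lower in both conditions, 3 of 5 sequences. Of all tested sequences 40.4% passed in control (27.1% lower) and 37.8% in low N (24% lower). In that fit the log2 change of miR159a in control was -0.51 ± 0.14 (edgeR adjusted p = 0.016).

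**Figure D3:**
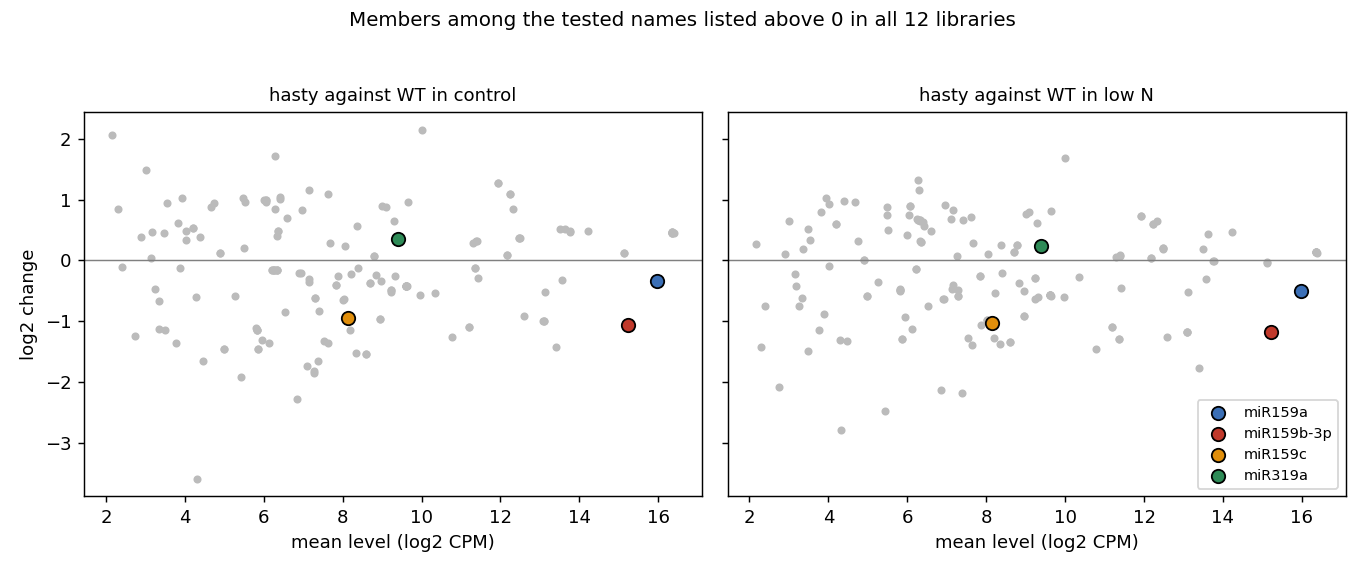
Log2 change between hasty and WT (y axis) against mean level in log2 CPM (x axis) for the tested names above 0 in all 12 libraries (grey), in control (left) and low N (right), with 4 members coloured. miR159b-3p and miR159c lie near -1 in both panels, with miR159a nearer to 0 and miR319a above it.

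The second question was how the families respond to low N. In WT shoots miR159a and miR159b-3p were 1.48-fold and 1.55-fold higher in low N, and in hasty shoots miR159b-3p was 1.43-fold higher. For miR159a the WT means were 59716 ± 11685 CPM in control and 88464 ± 13674 CPM in low N, and the log2 change was 0.57 with an SE of 0.16 (edgeR adjusted p = 0.023). For miR159b-3p in WT the log2 change was 0.63 ± 0.16 (edgeR adjusted p = 0.014). In both cases the lowest low N library lay above the highest control library. The miR159a call was lost without WT control replicate 1 (adjusted p = 0.051), WT control replicate 2 (0.078) or WT low N replicate 3 (0.080), and the miR159b-3p call was kept without any 1 library (adjusted p up to 0.044).

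In hasty the log2 change of miR159b-3p was 0.51 ± 0.16 (SE, edgeR adjusted p = 0.047), with every low N library above every control library. It was lost when 1 of 6 libraries was left out, replicates 1 and 3 of hasty control and replicates 1 and 2 of each low N group (adjusted p = 0.053 to 0.15). For miR159a in hasty the means were 47114 ± 3171 and 62390 ± 8068 CPM, and the log2 difference of 0.41 ± 0.16 missed the threshold (adjusted p = 0.11), although the libraries did not overlap. It was called without hasty control replicate 2 (adjusted p = 0.044) or hasty low N replicate 3 (0.032). The low N difference of miR159c was 0.45 ± 0.16 in WT (edgeR adjusted p = 0.059) and 0.36 ± 0.16 in hasty (0.16). It was called in WT without WT control replicate 3 (adjusted p = 0.030) or hasty low N replicate 2 (0.040), and in hasty without hasty control replicate 2 (0.046).

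The size of these changes moved with the scaling. With table totals in place of TMM factors the median of all tested names in WT shifted from 0.06 to -0.27 (log2), and the low N changes were 0.21 for miR159a and 0.28 for miR159b-3p, neither called (edgeR adjusted p = 0.25 and 0.15). Relative to the median of all names they were 0.48 and 0.54 with totals, and 0.50 and 0.57 with TMM factors. The share of all miR159 names in counts with each sequence counted once was 0.31 higher in low N on the log2 scale (exact permutation within genotypes, p = 0.005, adjusted p = 0.008). Its means were 26.1% ± 2.6 in control and 31.8% ± 3.2 in low N in WT, and 17.9% ± 0.79 and 22.5% ± 1.4 in hasty (SD, n = 3).

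For miR319a the low N change in WT was 0.32 ± 0.08 (log2, edgeR adjusted p = 0.016), but it was -0.06 with table totals and 0.10 ± 0.11 (adjusted p = 0.65) with the sequence counted once. The call was lost on leaving out replicate 1 of WT control, replicate 2 of hasty control or WT low N, or replicate 3 of hasty low N (adjusted p = 0.056 to 0.42). In hasty the log2 difference was 0.20 ± 0.08 for miR319a (adjusted p = 0.13) and 0.22 ± 0.11 for the sequence (adjusted p = 0.21). The name miR319b, at 672, 702 and 629 CPM in hasty control and 814, 839.5 and 811 CPM in hasty low N, passed the threshold there (log2 change 0.30 ± 0.07, adjusted p = 0.032). The miR319 share differed by 0.08 between nitrogen conditions (log2, exact permutation p = 0.435, adjusted p = 0.435), and the ratio of miR319 to miR159 by -0.23 (exact permutation p = 0.135, adjusted p = 0.15, and 0.034 without WT control replicate 3).

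In WT, 3 of 6 tested members passed the threshold between nitrogen conditions, against 32.2% of all names, and all 3 were higher (17.2% of all names). In hasty 2 of 6 passed, against 23.8%, and both were higher (8.79%). Of the 6 members 0 were lower in either genotype, against 15% of all names in each, with 0 lower at an unadjusted p under 0.05 in edgeR and 0 lower of the 5 that DESeq2 gave an adjusted p. The CPM ranges were apart for 4 of 6 members in WT and in hasty, against 45.8% and 42.5% of all names. With each sequence counted once, miR159b-3p alone was called, in WT (log2 change 0.43 ± 0.14, edgeR adjusted p = 0.049) and in hasty (0.48 ± 0.14, adjusted p = 0.034), 1 of 5 sequences. Of all tested sequences 25.3% passed in WT (9.33% higher) and 21.8% in hasty (8.89% higher).

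**Figure D4:**
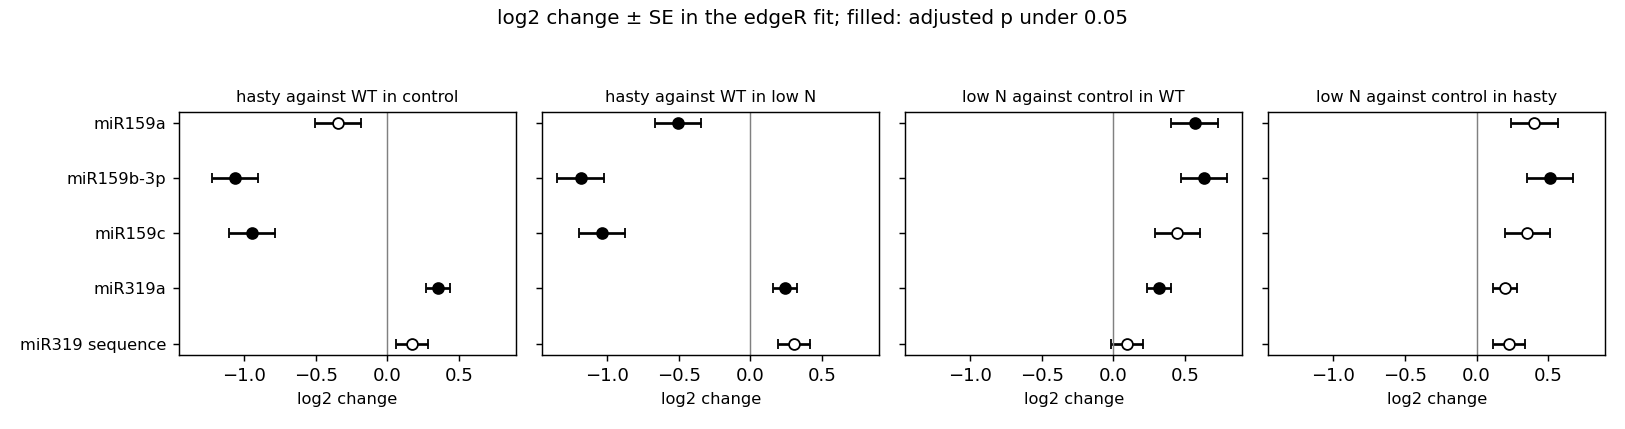
Log2 change with its SE (x axis) of 4 names and of the miR319 sequence counted once (y axis) in the 4 comparisons, from the edgeR fit, filled where the adjusted p is under 0.05. The miR159 names lie left of 0 between genotypes and right of 0 between nitrogen conditions.

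The third question was whether the low N response depends on genotype. Of the 6 tested members 0 passed the threshold for the interaction in edgeR, where 1.83% of all names did, 0 had an unadjusted p under 0.05, and DESeq2 called 0 of the 5 it gave an adjusted p. The interaction was -0.16 ± 0.23 (log2, SE) for miR159a (edgeR adjusted p = 0.90) and -0.12 ± 0.23 for miR159b-3p (adjusted p = 0.98), where a negative value means a smaller rise in hasty. These SEs leave room for differences of the size of the responses themselves.

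**Figure D5:**
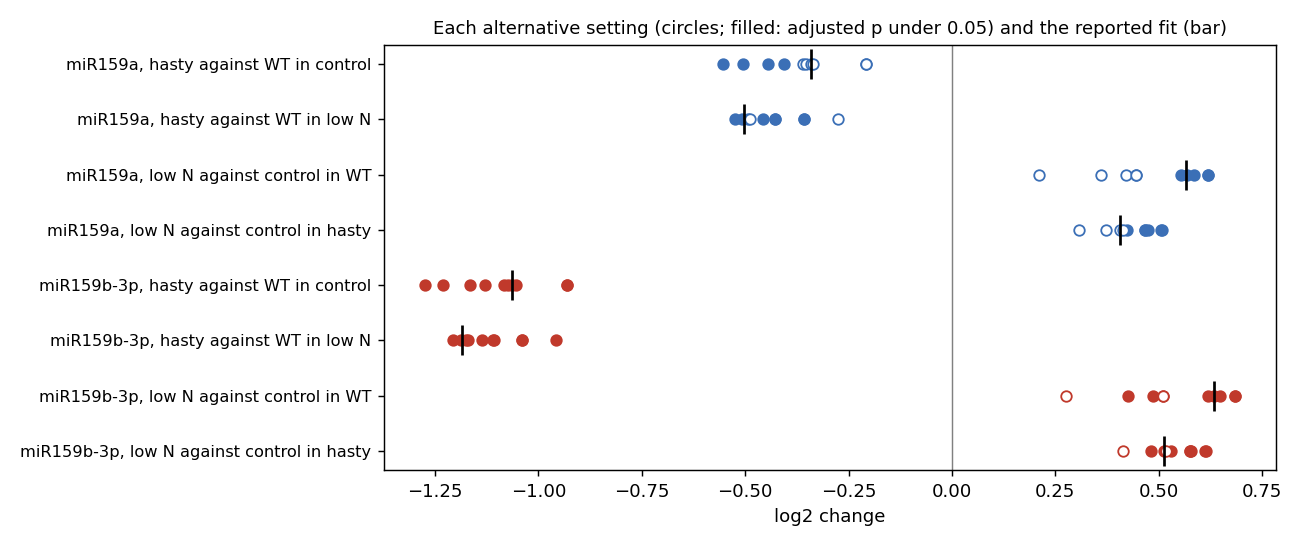
Log2 change (x axis) of miR159a and miR159b-3p in 4 comparisons (y axis) under each alternative setting (circles, filled where the adjusted p is under 0.05) and in the reported fit (black bar). All circles of miR159b-3p between genotypes are filled. For low N against control, the circles reach from 0.21 to 0.62 for miR159a and from 0.28 to 0.68 for miR159b-3p.

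Other miRNAs of the same pathways were read from lists of families. Among MYB-regulating miRNAs (miR159, miR319, miR828 and miR858), 7 of 9 names were tested, and 6 of these were the miR159 and miR319 names described above, with miR319a and miR319b as 1 sequence. Between genotypes 3 were higher and 2 lower in control, where 18.7% of all names were higher and 27.1% lower. In low N 3 were higher and 3 lower, against 11.4% and 23.4%. The higher names include miR319b, which was listed in hasty libraries alone. The median log2 change was 0.36 in control and 0.24 in low N, and 0.00 for all names in both. These medians are the values of miR319a itself, with the same sequence counted again above it as miR319b. They therefore do not show a rise of the list. The one tested name outside the miR159 and miR319 families was miR858a, which acts on MYB genes of flavonoid synthesis. Its log2 change was 1.10 ± 0.17 (SE, edgeR adjusted p = 0.00082) in hasty control and 0.91 ± 0.17 (adjusted p = 0.0028) in WT low N. Among leaf-growth miRNAs tied to TCP factors (miR319, miR164 and miR396), all 12 names were tested. Of these, miR319a and miR319b are 1 sequence, and so are miR164a and miR164b-5p, so the counts below hold sequences listed under more than 1 name. Between genotypes 5 were higher and 5 lower in control, with a median of -0.08, and 3 were higher and 5 lower in low N, with a median of -0.18, set against the same shares and medians of all names. The higher names again include miR319b, listed in hasty libraries alone. In low N against control, 5 were higher in WT, where 17.2% of all names were, and 4 in hasty, where 8.79% were. Both counts include miR164a and miR164b-5p. The count in WT also includes miR319a, whose sequence counted once was not called there (log2 change 0.10, edgeR adjusted p = 0.65). The count in hasty also includes miR319b, whose sequence counted once was not called there (edgeR adjusted p = 0.21). Of the 12 names 0 were called lower in either genotype by edgeR, also at an unadjusted p under 0.05, against 15% of all names in each.

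Outside miR319, the lower names in hasty control were 4 of miR164, which restrains CUC boundary genes, and miR396a-3p, and the higher ones were 3 of miR396, which restrains growth-regulating factors. The level of miR164a changed by -1.09 ± 0.07 (log2, SE, edgeR adjusted p = 2.7e-06), close to miR159b-3p in size, and in low N it changed by 0.65 ± 0.07 in WT (adjusted p = 9.5e-05). For miR396b-5p the change in hasty control was 0.52 ± 0.16 (adjusted p = 0.022), and between genotypes in low N it was 0.43 ± 0.16 and missed the threshold (adjusted p = 0.062).

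The names whose levels most resembled the members were ranked by Pearson correlation of log2(CPM + 1) over the 12 libraries, among 111 candidates above 0 in all of them. Names of 1 mature sequence or with identical counts were taken once. Predicted names had no sequence, so they may not all be distinct. The libraries share genotype and nitrogen groups and a scaling factor each, so these values are descriptions. The miR319 sequence was scaled with the factors of the fit with each sequence counted once. The candidates were scaled with those of the fit over names, and the effect of this on r was not tested. The nearest to miR159b-3p were miR403-3p (r = 0.968), miR168b-3p (0.968) and the sequence of miR164a and miR164b-5p (0.965). The nearest to miR159a were miR167c-5p (r = 0.917), miR164c-5p (0.862) and miR165a-5p (0.854). The nearest to the miR319 sequence were the predicted names NovelmiRNA-59 (r = 0.854), NovelmiRNA-41 (0.782) and NovelmiRNA-89 (0.782).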

How the data were processed

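Small RNAs of Arabidopsis shoots were sequenced in 12 libraries, 3 in each of 4 groups that the labels describe as biological replicates. The table deposited by the authors is named as TPM, but it holds whole numbers per miRNA name whose totals differ between libraries, and the values were taken as read counts. If they were scaled before deposit, the count model would not match them. The aligner and the rule for reads that match several names are not given in the sources used here, and the control columns were matched to their groups by elimination.

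Counts were tested in edgeR 4.0.16 (R 4.3.3) with TMM factors, its filter on low counts, 1 coefficient per group and the quasi-likelihood test, with Benjamini-Hochberg adjustment over all tested names. SEs were taken from the change and its F statistic. The fit was tested on simulated data with known changes between hasty and WT in control. It called, with the right sign, 4 of 17 changes of 1.5-fold, 6 of 15 of 2-fold and 12 of 18 of 4-fold. Of 223 unchanged names it called 1. Changes of the sizes discussed here can thus be missed, though abundant names were not looked at apart. The simulation left 223 of 273 names unchanged, while 45.8% of tested names were called between genotypes in control. It therefore does not give the rate of false calls in these data. A second table counted each mature sequence once per library, as the highest of its names. Ratios and shares were tested by exact permutation within the other factor. DESeq2 1.42.0 and other scalings and filters were alternatives.

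The text names all miR159 and miR319 rows, list members, and the 3 names most correlated with each of miR159a, miR159b-3p and the miR319 sequence. The members and lists were chosen with earlier results of these data known. miR396b-5p, miR164a and miR858a were singled out after their values were seen. Sequences came from the TAIR10.1 genome and RefSeq annotation, in which all 216 known names were matched. The 174 predicted names had no sequence.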

Additional observations from a re-analysis of the deposited data

How the results depend on the processing

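The lower levels of miR159b-3p and miR159c in hasty kept their direction and side of the threshold in all 12 fits that left out 1 library and in every alternative run. The genotype difference in the ratio of miR159a to miR159b-3p was kept as well, but these runs could not put it to the test. With the genotypes apart in both conditions, its permutation p stays the smallest possible when 1 library is left out. Of its alternatives, only the ratio without log2 could alter it (exact permutation, adjusted p = 0.008). Other results moved, and the cause was not tested. Between genotypes in control the change of miR159a passed the threshold with table totals (-0.55), a mean of at least 10 CPM (-0.45), each sequence counted once (-0.51) and names at 0 left out (-0.41, chosen after seeing the data). In low N it missed it with no filter (-0.28). Its low N change in WT missed it with totals (0.21), no filter (0.42), only the groups compared (0.44) and sequences once (0.36). In hasty it passed with median-of-ratios factors and DESeq2 (0.47 each), no filter (0.51), 10 CPM (0.47), miR165 and miR166 left out (0.51) and names at 0 left out (0.42). For miR159b-3p the low N change missed it in WT with totals (0.28) and only the groups compared (0.51), and in hasty with totals (0.41). The interaction changed sign with totals, no filter and sequences once, to 0.10, 0.085 and 0.013 for miR159a and 0.14, 0.13 and 0.056 for miR159b-3p, which was 0.020 with names at 0 left out. The low N change in WT turned to -0.056 for miR319a and -0.013 for the miR319 sequence with totals. Between genotypes the miR319 sequence passed with median-of-ratios factors (0.42 in both conditions), DESeq2 (0.42 in both), totals (0.38 and 0.55) and miR165 and miR166 left out (0.33 and 0.35). It also passed with both names added (1.21 and 1.25), but that sum raises hasty only, as miR319b was listed in hasty alone, and is no test. In low N the sequence also passed with no filter (0.35), only the groups compared (0.33) and names at 0 left out (0.34). The name miR319a, called between genotypes in both conditions, missed the threshold with totals (0.14 in control and 0.30 in low N) and 10 CPM (0.24 and 0.23).

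Members called in low N against control were 0 in WT with totals or only the groups compared and 1 with no filter or sequences once. In hasty they were 4 with median-of-ratios factors, DESeq2 or miR165 and miR166 left out, 0 with totals and 1 with sequences once. Between genotypes in low N they were 3 with sequences once.

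Same-numbered libraries did not deviate together (correlations from -0.22 to 0.32), so the numbers were not taken as pairs. With a replicate block, members called for low N in hasty numbered 0, the miR159a change between genotypes in low N was -0.49 (edgeR adjusted p = 0.069), the low N change of miR159b-3p in hasty 0.52 (0.080) and the miR319 sequence between genotypes in low N 0.31 (0.033).

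Leaving out each library in turn gave 3 to 5 members called between genotypes in low N, 1 to 4 for low N in WT and 0 to 3 in hasty. The miR159a change ranged from -0.48 to -0.19 between genotypes in control, -0.59 to -0.30 in low N, 0.42 to 0.71 for low N in WT, 0.32 to 0.53 in hasty and -0.31 to 0.083 for the interaction. For miR159b-3p it ranged from 0.44 to 0.62 for low N in hasty and -0.26 to 0.11 for the interaction. The miR319 sequence ranged from 0.26 to 0.33 between genotypes in low N and -0.022 to 0.16 for low N in WT, and the ratio of miR319 to miR159 by nitrogen from -0.33 to -0.14. Counts of 16 or fewer limit miR159b-5p.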
